A study of Mus musculus with 4 samples.

Results

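The circadian clock genes of 5TMM bone marrow, a mouse model of multiple myeloma, were followed across cell types after a single treatment with purinostat mesylate (PM), an inhibitor of class I and class IIb histone deacetylases. The 10 genes were Per1, Per2, Per3, Nr1d1, Nr1d2, Dbp, Tef, Arntl, Cry1 and Bhlhe40, of 32285 genes in the deposited tables. The set was chosen by the values of monocytes and their progenitors (mono&prog) of these same mice, in which Per1 was lower after PM, so the mono&prog values are given as a description without a test. The question was whether that difference was shared by other clock genes and by other lineages.

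Clock genes form feedback loops. The transcription factors ARNTL (also called BMAL1) and CLOCK bind E-box motifs and activate the Per, Cry, Nr1d, Dbp, Tef and Bhlhe40 genes. PER and CRY proteins and BHLHE40 then repress this activation, NR1D1 and NR1D2 repress Arntl, and DBP and TEF act through D-box motifs. Per1 is also induced directly by glucocorticoids and by cAMP signalling, and blood and marrow leukocytes are known to carry such clocks.

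In all 4 mice, 5TGM1-luc myeloma cells had been given intravenously to C57BL/KawRij mice at 6 weeks of age, and treatment began 3 weeks later. The 2 vehicle mice received no PM and the 2 PM mice received 10 mg/kg, and marrow was taken at 24 h, depleted of erythrocytes by lysis and sequenced as 1 single-cell library per mouse. The time of day at which marrow was taken is not given in the sources used here. After filtering, 39743 cells were kept, 7826 to 13387 per mouse, from libraries of 69828595 to 109447030 unique molecular identifiers (UMIs, 1 per captured transcript). Cells of the vehicle mice had medians of 6067 and 5330.5 UMIs, those of the PM mice 4717 and 4805, and pairs of libraries shared 18 to 41 cell barcodes. UMIs were summed per mouse in 10 cell types named from marker genes, and levels are UMIs per 1000000 UMIs of the type's sum (CPM). The types come from the same 4 mice and are not independent repeats of each other. A cluster needed at least 3 markers of its name raised over the other clusters, and not all markers were raised. Both clusters named as hematopoietic stem and progenitor cells had 7 of 13 raised. Neutrophil cluster 4 had 7 of 14 and neutrophil cluster 10 had 4 of 14. The 421 macrophages, at a median of 683 to 804 UMIs per cell, were the shallowest. Transcripts of 7 neutrophil genes, which can enter other cells' droplets, made up 14.2 to 15.2 per 1000 UMIs in vehicle mono&prog and 14.4 to 21.4 after PM. In DC they made up 2.65 and 0.925 per 1000 with vehicle and 12.2 and 9.11 with PM. Macrophages held more of them, 101 and 53.6 per 1000 with vehicle and 154 and 110 with PM. The part of these transcripts in the DC and macrophage values was not tested.

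The promoter windows of 4 clock genes are shown because they were the ones that held an E-box or a D-box. Of the 10 genes, 8 had a promoter in the RefSeq table for GRCm38.p6, with 11 start sites in all. The E-box was in 4 of 11 windows (3 genes, with both Tef windows and 1 of 2 Per1 windows) and the D-box in 1 of 11, while the windows of Nr1d1, Nr1d2, Dbp and Arntl held neither. The bases are the 250 before the start site, 5′ to 3′ on the strand of the gene. Capitals mark the E-box CACGTG in Per1 (chr11:69098699-69098948, plus strand), Cry1 (chr10:85185055-85185304, minus strand) and Tef (chr15:81802423-81802672, plus strand), and the D-box TTATGTAA in Per3 (chr4:151044666-151044915, minus strand).
Per1: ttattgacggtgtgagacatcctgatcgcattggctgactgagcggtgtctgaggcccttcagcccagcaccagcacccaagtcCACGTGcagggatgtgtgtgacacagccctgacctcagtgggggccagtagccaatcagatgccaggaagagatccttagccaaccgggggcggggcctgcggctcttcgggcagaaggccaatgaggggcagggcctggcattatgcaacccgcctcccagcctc
Cry1: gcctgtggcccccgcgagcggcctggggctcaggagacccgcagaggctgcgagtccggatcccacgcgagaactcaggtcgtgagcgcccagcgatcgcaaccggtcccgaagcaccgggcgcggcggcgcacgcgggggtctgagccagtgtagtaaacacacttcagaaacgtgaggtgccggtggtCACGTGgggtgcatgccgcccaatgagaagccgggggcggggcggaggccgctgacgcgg
Tef: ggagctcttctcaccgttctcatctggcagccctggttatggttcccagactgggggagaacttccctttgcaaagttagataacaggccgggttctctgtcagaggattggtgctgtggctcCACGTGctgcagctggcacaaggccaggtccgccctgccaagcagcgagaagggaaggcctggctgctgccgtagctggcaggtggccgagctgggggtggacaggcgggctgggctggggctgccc
Per3: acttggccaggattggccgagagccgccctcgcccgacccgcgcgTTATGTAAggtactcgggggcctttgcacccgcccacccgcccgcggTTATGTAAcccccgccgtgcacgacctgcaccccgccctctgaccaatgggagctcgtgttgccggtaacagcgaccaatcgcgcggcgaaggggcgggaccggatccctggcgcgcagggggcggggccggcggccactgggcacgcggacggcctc
The E-box starts 166 bases before the start site in Per1, 60 in Cry1 and 127 in Tef, and the 2 D-boxes of Per3 start at 205 and 158. Both strands were searched in 32851 mouse promoter windows of the same length, of which 6.02% held CACGTG and 0.819% held TTATGTAA. The cAMP response element TGACGTCA was in none of these clock gene windows and in 1.55% of all windows. Its shorter core TGACG, which every full element also contains, was in Per1 and Cry1 and in 17.8% of all windows. These matches describe letters in a window and were not tested as binding sites.

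Per1 (chr11:69095217-69109960 in GRCm38), a repressor subunit of the loop, was the clock gene with lower values after PM in most lineages. Outside mono&prog it passed the test given below in 2 of the 8 types tested. In the sum of all kept cells outside mono&prog, unnamed clusters included, Per1 was not called. It was at 25.1 and 22.7 CPM there with vehicle and at 10.8 and 14.4 with PM (-1.09 ± 0.17, edgeR adjusted p = 0.203). In that sum 1 of 15403 genes was called. In mono&prog, the values that chose the genes, Per1 was at 58.1 and 42.6 CPM in the vehicle mice and at 21.4 and 25.8 CPM in the PM mice. Both PM mice were below both vehicle mice, with a log2 fold change of -1.15 ± 0.16 (SE, n = 2 mice per group).

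Outside mono&prog, 66 gene and type combinations had enough UMIs to be tested, and 4 were called at an adjusted p under 0.05 and an absolute log2 fold change over 0.5. Of these, 2 were Per1, in neutrophils and in the type named hematopoietic stem and progenitor cells (HSPC). The other 2 were in B cells, Arntl and Nr1d2. The HSPC type was made only of clusters 11 and 16, led by Elane, Mpo and Prtn3. Cluster 15, led by Cd34 and with Meis1 and Hlf among its leading genes, stayed unnamed and was not summed as a type. HSPC values thus describe the progenitors of clusters 11 and 16 and not the cells of cluster 15. The share of all tested genes called in the same way was 5.73% in neutrophils, 6.36% in B cells, 1.49% in T cells (with NK cells), 0.947% in macrophages, 0.854% in DC, 0.353% in HSPC, 0.265% in erythroid&prog, 0.138% in eosinophil/basophil prog and 0.0524% in plasma cells. In neutrophils 1 of 8 clock genes tested was called, in B cells 2 of 9 and in HSPC 1 of 10. In the other types edgeR called 0 of 7 in DC, 0 of 10 in T cells, 0 of 9 in erythroid&prog, 0 of 8 in plasma cells, 0 of 4 in eosinophil/basophil prog and 0 of 1 in macrophages, and DESeq2 also called 0 in each. At an unadjusted edgeR p under 0.05 these counts were 2, 2, 1, 0, 1 and 0. They were 4 of 8 in neutrophils, 4 of 9 in B cells and 1 of 10 in HSPC. The share of all genes at that threshold is not given, here or for single genes below, so these counts cannot be judged against it. In mono&prog 6 of 9 fitted clock genes were below 0, with a median log2 fold change of -0.23 that includes the values that chose the set. The median of the tested clock genes was -0.39 in eosinophil/basophil prog (3 of 4 below 0) and -0.10 in plasma cells (6 of 8), between 0.03 and 0.09 in T cells, erythroid&prog and DC, and 0.16 in HSPC, 0.23 in neutrophils and 0.27 in B cells. Over all genes the median lay between 0.00 and 0.02 in each type.

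**Figure D1:**
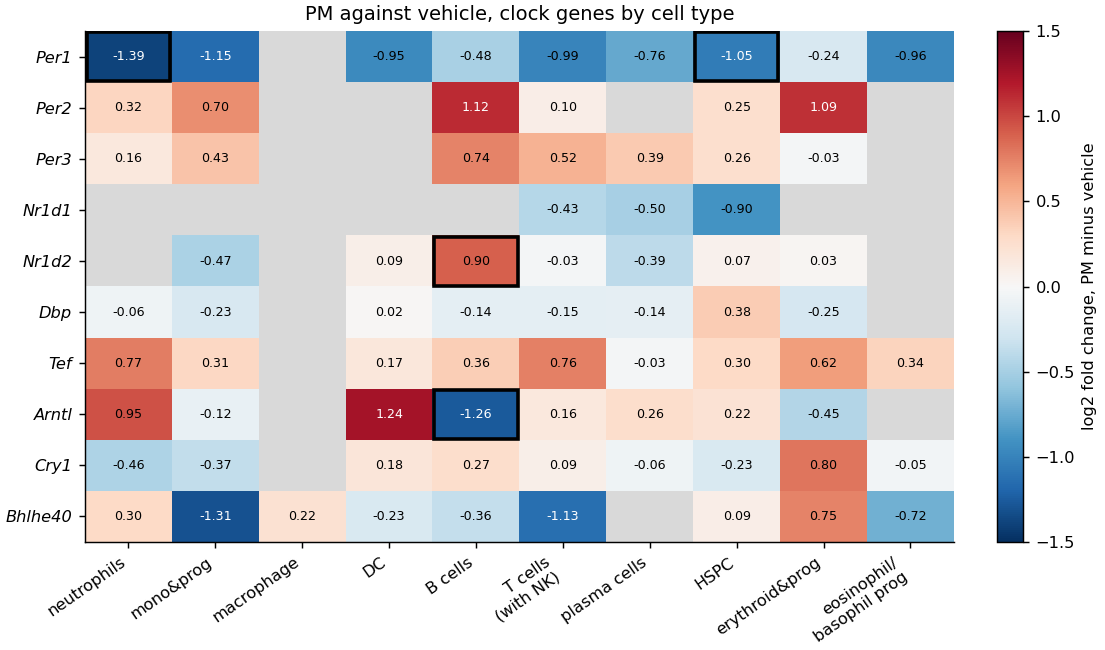
Log2 fold change (PM minus vehicle) of the 10 clock genes, in rows, in the 10 cell types, in columns, with grey for combinations with too few UMIs to be fitted and black frames for the 4 called combinations. Mono&prog was not tested, and values of genes under 10 CPM rest on few UMIs. The Per1 row is below 0 in all 9 fitted types, from -0.24 to -1.39, the Nr1d1 row is also below 0 in the 3 types fitted, the Per2 row is above 0 in all types fitted, and the other rows hold both signs.

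In neutrophils, the largest type with 22911 cells, Per1 was at 22.1 and 23.4 CPM with vehicle and at 7.33 and 11.3 CPM with PM. It fell by 1.39 on the log2 scale (SE 0.17, edgeR adjusted p = 0.0034). In HSPC it was at 19.5 and 15.9 CPM with vehicle and at 8.33 and 9.12 CPM with PM, a fall of 1.05 (SE 0.16, edgeR adjusted p = 0.027), with neutrophil transcripts at 24.6 to 33.9 per 1000 UMIs with vehicle and 30.2 to 43.4 with PM, whose part in the result was not tested. In both types the groups did not overlap.

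In 4 further types both PM mice were also below both vehicle mice, without passing the test or without being tested. With 2 mice per group such an order can arise by chance. The share of all genes with groups apart is not given, here or for the clusters below. The DC were cluster 17 only, led by Siglech and Ccr9. Cluster 18, of 612 cells, stayed unnamed and is part of neither the DC nor the mono&prog values. Its best marker score was for mono&prog (2.25, 9 of 10 markers raised) and its next for DC (0.90). Ace, Cd209a, Cx3cr1, Adgre4, H2-Eb1 and H2-Ab1 were among its leading genes. In DC Per1 was at 40.9 and 39.3 CPM with vehicle and 17.6 and 24.9 with PM (log2 fold change -0.95 ± 0.27, edgeR adjusted p = 0.142). In T cells (with NK cells) it was at 31.8 and 36.3 CPM with vehicle and 11.0 and 23.6 with PM (-0.99 ± 0.33, adjusted p = 0.149). These groups were apart, but the difference did not clear the adjustment over all genes. Both values moved with the PM mouse left out. Without PM 2 they were -1.17 (edgeR adjusted p = 0.033) in DC and -1.56 (adjusted p = 0.0085) in T cells, and without PM 1 they were -0.70 (adjusted p = 0.601) and -0.52 (adjusted p = 0.725). In eosinophil/basophil prog, vehicle mice had 38.0 and 34.8 CPM and PM mice 14.7 and 22.8 (-0.96 ± 0.38, adjusted p = 0.608). Macrophages held only 7, 2, 1 and 1 Per1 UMIs and were not tested.

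In the remaining 3 types the groups overlapped. B cells had 27.7 and 13.9 CPM with vehicle and 11.1 and 14.3 with PM (-0.48 ± 0.34, edgeR adjusted p = 0.472). Plasma cells had 47.9 and 22.8 CPM with vehicle and 19.4 and 29.6 with PM (-0.76 ± 0.45, adjusted p = 0.835), and erythroid&prog had 33.2 and 24.5 CPM with vehicle and 27.2 and 23.2 with PM (-0.24 ± 0.23, adjusted p = 0.676). Vehicle 1 was the high value in each of these types. Without vehicle 1 the log2 fold changes of B cells, plasma cells and erythroid&prog were -0.16, -0.13 and 0.0037, and without vehicle 2 they were -1.14, -1.27 and -0.50. Without PM 1 the plasma cell value was -0.39. The plasma cells pooled cluster 24, led by Igha and Ighg2c (-0.63 ± 0.46), and cluster 26, led by Rhox5 and Mt2 (-0.25 ± 0.34). The summed value was below both. Cluster 26 made up 36.5% and 46.0% of the plasma cells of vehicle mice and 54.6% and 36.5% of those of PM mice. A test of whether the PM effect on Per1 differed between the 9 types gave an adjusted p of 0.188 (edgeR F test with mouse as a block, 7.96% of all genes called). This call depended on the setting, with an adjusted p of 0.012 without vehicle 1, 0.00054 without the filter on low counts and 0.998 without PM 1.

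**Figure D2:**
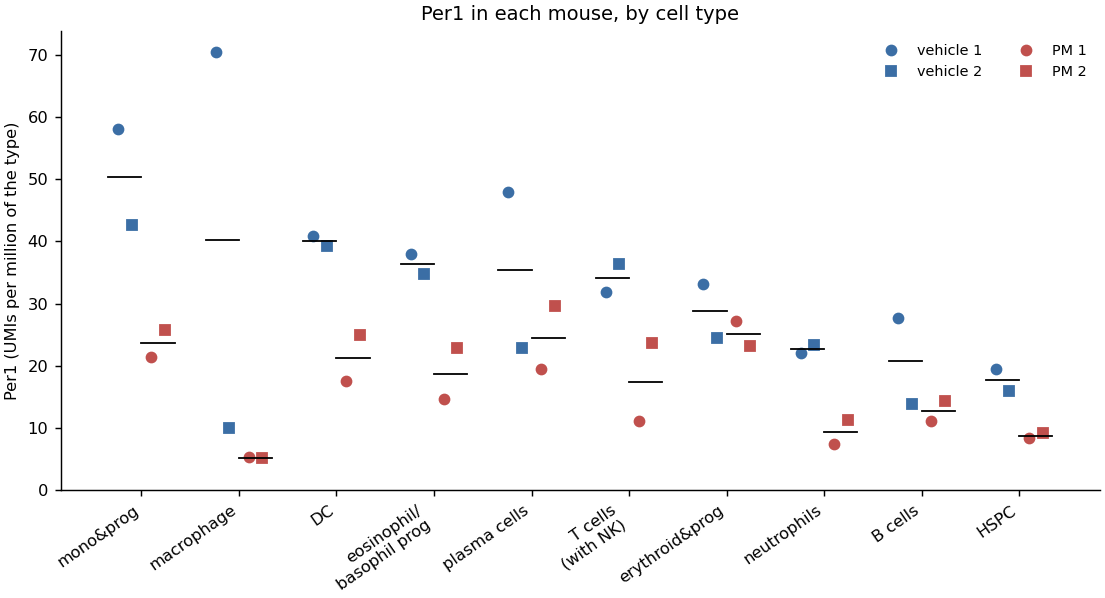
Per1 in UMIs per 1000000 of each type's sum (vertical axis) for each of the 4 mice in the 10 types, ordered by the vehicle mean, with blue points for vehicle, red points for PM and bars for the group means. The red points lie below the blue points in 7 types, mono&prog included, and overlap them in B cells, plasma cells and erythroid&prog.

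In the vehicle mice, Per1 was highest by mean in mono&prog (50.4 CPM), macrophages (40.2) and DC (40.1) and lowest in neutrophils (22.7), B cells (20.8) and HSPC (17.7). Most neighbours in that order overlapped between mice. The DC values (39.3 to 40.9) were above those of eosinophil/basophil prog (34.8 to 38.0), and those of erythroid&prog (24.5 to 33.2) above neutrophils (22.1 to 23.4). Among the PM mice, PM 1 was below PM 2 in 8 of the 9 fitted types and was the lowest of the 4 mice in the same number.

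Neutrophils fell into 7 clusters, and Per1 was lower in both PM mice than in both vehicle mice in 6 of them. The exception was cluster 3, led by Orm1 and Ltf (granule stages), at 11.8 and 10.8 CPM with vehicle and 6.11 and 11.1 with PM. When each cluster was fitted by itself, Per1 was called in 4 of 7, where 5.12% of all gene and cluster combinations were called. The highest level was in cluster 10, led by the inflammatory genes Il1b and Ptgs2, where vehicle mice had 134 and 132 CPM and PM mice 38.1 and 70.1 (-1.16 ± 0.30, edgeR adjusted p = 0.027). The widest difference was in cluster 2, led by Retnlg and Prok2, with 30.9 and 31.1 CPM with vehicle and 7.20 and 8.65 with PM (-1.94 ± 0.20, adjusted p = 0.00047). Cluster 4, led by Ncam1 and Chil3, was lowest, at 5.89 and 5.27 CPM with vehicle and 2.83 and 3.29 with PM. The PM effect on Per1 differed between the neutrophil clusters (edgeR F test, adjusted p = 0.032, 12.9% of all genes called). Cluster 10 held 11.4% of the neutrophils of vehicle 2 and 3.58% to 4.42% of those of the other 3 mice.

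In HSPC, cluster 16, led by Mpo and Prtn3, had Per1 at 22.1 and 19.8 CPM with vehicle and at 7.97 and 8.06 with PM (-1.40 ± 0.20, edgeR adjusted p = 0.017, 0.493% of gene and cluster combinations called). In cluster 11, led by Elane and Mpo, it was at 17.1 and 12.8 CPM with vehicle and at 8.67 and 9.86 with PM (-0.73 ± 0.20, adjusted p = 0.139). In both clusters the groups did not overlap. Nrg1, Met and Ass1 were among the leading genes of cluster 16 and also of mono&prog cluster 8. The next best marker list of cluster 16 was that of mono&prog, at a score of -0.21 against 0.99 for HSPC. The part of this likeness to mono&prog in the HSPC call was not tested. The 2 mono&prog clusters, given as a description, were at 83.5 and 66.8 against 34.6 and 46.3 CPM (cluster 6, led by Vcan and Fn1) and at 43.2 and 30.1 against 16.2 and 16.8 CPM (cluster 8, led by Nrg1 and Klf4).

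**Figure D3:**
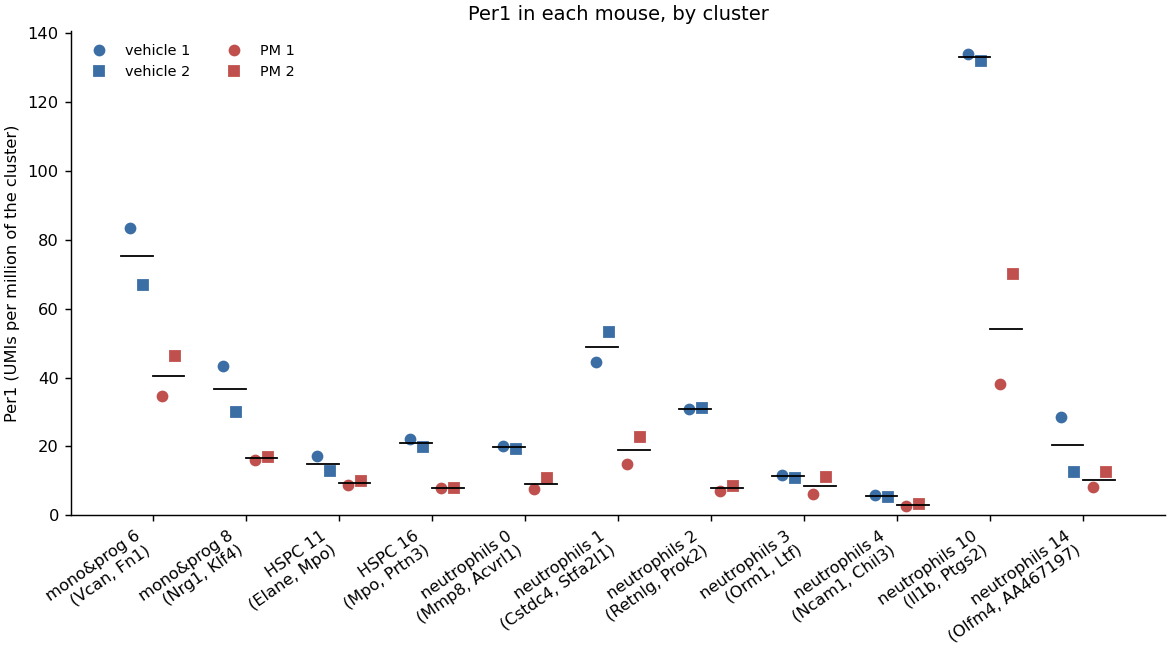
Per1 in UMIs per 1000000 of each cluster's sum (vertical axis) for each of the 4 mice in the clusters of mono&prog, HSPC and neutrophils, named by number and 2 leading genes, with blue points for vehicle, red points for PM and bars for the group means. The red points lie below the blue ones in every cluster shown except neutrophil cluster 3, and neutrophil cluster 10 has the highest vehicle values, 132 and 134.

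The other Period genes did not follow Per1. Per2 (chr1:91415982-91459324), also a repressor of the loop, was at 9.55 and 13.1 CPM with vehicle and at 13.5 and 16.5 with PM in neutrophils (0.32 ± 0.16, edgeR adjusted p = 0.269). It was called in 0 of 5 types by edgeR and by DESeq2, with 2 at an unadjusted p under 0.05, and its log2 fold change was above 0 in each of the 5, although in T cells it was below 0 without vehicle 1 or PM 2. In T cells it was at 10.2 and 12.1 CPM with vehicle and at 9.81 and 14.1 with PM. Within neutrophils, the PM effect on Per2 differed between clusters (edgeR F test, adjusted p = 0.026, 12.9% of all genes called). Cluster 0, led by Mmp8, had 9.41 and 15.3 CPM with vehicle against 19.0 and 23.7 with PM. Cluster 4 had 9.45 and 10.4 against 8.61 and 11.9. No single cluster was called for Per2, with adjusted p from 0.069 in cluster 0 upward.

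Per3 (chr4:151003652-151044665, which overlaps Camta1 on the same strand, so reads of the shared stretch may be split) was highest in HSPC, at 38.4 and 40.0 CPM with vehicle and at 42.5 and 53.1 with PM (0.26 ± 0.12, edgeR adjusted p = 0.370). In T cells it was at 17.0 and 15.1 CPM with vehicle and 20.02 and 25.7 with PM, and in B cells at 4.38 and 10.02 against 14.3 and 14.7. The PM mice were above the vehicle mice in each of these 3 types, but Per3 was called in 0 of 6 types by edgeR and by DESeq2, with 1 at an unadjusted p under 0.05.

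Cry1 (chr10:85131700-85185064), the cryptochrome partner of the PER proteins, was at 25.5 and 24.2 CPM with vehicle and at 19.0 and 19.5 with PM in neutrophils. The groups did not overlap and the edgeR adjusted p was 0.043, but the log2 fold change of -0.46 ± 0.11 was within the limit of 0.5, so it was not called. In mono&prog Cry1 was at 34.2 and 28.7 CPM with vehicle and at 21.7 and 29.0 with PM. HSPC had 39.1 and 34.5 CPM with vehicle against 28.0 and 36.6, in B cells 23.4 and 26.8 with vehicle and 28.3 and 34.1 with PM, and in T cells 20.4 and 45.4 with vehicle and 38.8 and 30.7 with PM. Of the 8 types tested, the log2 fold change was below 0 in 4.

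Arntl (chr7:113207465-113314126, with the antisense gene Gm45355), the activator of the loop, was highest in B cells by a wide margin. It was at 129 and 113 CPM in the vehicle mice and at 44.5 and 55.2 CPM in the PM mice. All PM values were below all vehicle values, and Arntl fell by 1.26 on the log2 scale (SE 0.17, edgeR adjusted p = 6.9e-05). The second highest type by vehicle mean was T cells, at 18.2 and 30.3 CPM with vehicle and 29.8 and 23.6 with PM (0.16 ± 0.30, adjusted p = 0.860), and in mono&prog it was at 8.55 and 8.03 against 7.76 and 7.95. Of the 10 clock genes, 1 had a PM effect that differed between the types outside mono&prog, near the 7.96% of all genes called. This was Arntl (edgeR F test, adjusted p = 0.0026). Without PM 1 that adjusted p was 0.287, and no clock gene passed.

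The B cells comprised 3 clusters with different Arntl levels. Cluster 22, led by Igll1 and Vpreb1, which encode the surrogate light chain of early B cell precursors, had 326 and 195 CPM with vehicle and 76.7 and 116 with PM (-1.28 ± 0.26, edgeR adjusted p = 0.0080). Cluster 9, led by Fam129c and Ms4a1, had 65.9 and 90.6 CPM with vehicle and 41.5 and 24.7 with PM (-1.31 ± 0.27). Cluster 5, led by Ighd and Fcer2a, genes of mature B cells, had 24.0 and 28.3 CPM with vehicle and 32.0 and 32.0 with PM (0.22 ± 0.35, adjusted p = 0.861). Arntl was called in 2 of 3 clusters, where 4.62% of gene and cluster combinations were called, and its PM effect differed between the clusters (edgeR F test, adjusted p = 0.012, 7.19% of all genes called).

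Cluster 5 made up 49.8% and 28.5% of the B cells of vehicle mice but 65.3% and 57.0% of those of PM mice, and cluster 22 made up 15.9% and 15.6% with vehicle against 6.72% and 9.25%. The sum over all B cells thus moved both with these shares and with the level inside clusters 9 and 22. How much each contributed to the summed value was not tested. Neutrophil transcripts in B cells were 2.38 to 5.11 per 1000 UMIs with vehicle and 2.88 to 4.44 with PM.

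Nr1d2 (chr14:18204054-18239127), a nuclear receptor that represses Arntl, was at 17.5 and 18.1 CPM with vehicle and at 38.4 and 27.0 with PM in B cells. It rose by 0.90 on the log2 scale (SE 0.26, edgeR adjusted p = 0.038), and both PM mice were above both vehicle mice. The edgeR adjusted p was 0.081 with the replicate number as a block, 0.065 without called doublets and 0.056 under the stricter cell filter. DESeq2 gave 0.573. The call was also lost without vehicle 2 (log2 fold change 0.93) or PM 1 (0.58). Within B cells, cluster 5 was at 30.9 and 35.3 CPM with vehicle and 65.0 and 52.3 with PM (0.79 ± 0.29, edgeR adjusted p = 0.129). Cluster 9 was at 11.0 and 15.4 with vehicle and 14.2 and 5.48 with PM. Cluster 22, not tested, was at 4.73 and 10.2 with vehicle and 5.90 and 13.2 with PM. None of these clusters was called. The sum over B cells also moved with the larger share of cluster 5 after PM, whose part was not tested. T cells had the highest Nr1d2 level by vehicle mean, at 60.2 and 56.5 CPM with vehicle and 51.5 and 61.4 with PM (-0.03 ± 0.19, adjusted p = 0.970), and mono&prog had 8.62 and 13.3 against 8.78 and 6.98. Nr1d1 (chr11:98767932-98775333), its paralog, overlaps Thra on the opposite strand, stayed under 10 CPM on average in each type and was called in 0 of the 3 types tested by edgeR and by DESeq2, with 0 at an unadjusted p under 0.05.

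**Figure D4:**
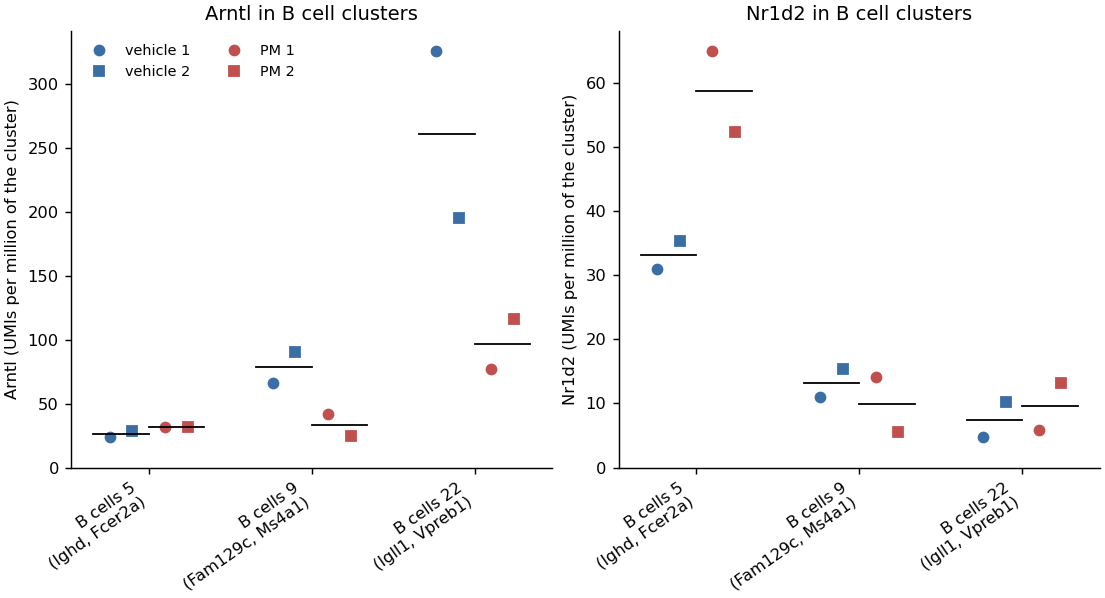
Arntl (left) and Nr1d2 (right) in UMIs per 1000000 of each B cell cluster's sum (vertical axes) for each of the 4 mice, with blue points for vehicle, red points for PM and bars for the group means. Arntl is lower in both PM mice in clusters 9 and 22 and at 24.0 to 32.0 CPM in all 4 mice in cluster 5, while Nr1d2 is higher in both PM mice in cluster 5 only.

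Dbp and Tef encode activators that act at D-boxes. Tef (chr15:81802421-81826863, with the antisense gene Gm17597) was at 27.2 and 33.3 CPM with vehicle and at 48.2 and 53.3 with PM in T cells (0.76 ± 0.22, edgeR adjusted p = 0.096), and at 32.1 and 26.2 against 39.7 and 30.6 in B cells (0.36 ± 0.23, adjusted p = 0.417). The T cell groups did not overlap, but Tef was called in 0 of 8 types by edgeR and by DESeq2, with 1 at an unadjusted p under 0.05. Dbp (chr7:45705088-45710203, which meets Sphk2 on the opposite strand) was at 14.8 and 20.2 CPM with vehicle and 16.3 and 14.6 with PM in T cells, and at 13.1 and 9.70 against 9.80 and 9.13 in B cells. Both overlapped, and Dbp was called in 0 of 7 types by edgeR and by DESeq2, with 0 at an unadjusted p under 0.05.

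Bhlhe40 (chr6:108660629-108666925, with the antisense gene 0610040F04Rik), a repressor that competes at E-boxes, was lower in mono&prog and not in neutrophils. In mono&prog it was at 13.9 and 10.6 CPM with vehicle and at 4.09 and 6.56 with PM (log2 fold change -1.31 ± 0.25, no test). In neutrophils it was at 19.2 and 22.1 CPM with vehicle and at 23.6 and 30.6 with PM (0.30 ± 0.13, edgeR adjusted p = 0.192). The 2 types thus had opposite orders of the groups, a difference that was not tested, and the mono&prog values are those that chose the set. Bhlhe40 was called in 0 of 8 types by edgeR and by DESeq2, with 1 at an unadjusted p under 0.05.

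Inside neutrophils the PM effect on Bhlhe40 differed between clusters (edgeR F test, adjusted p = 5.4e-05, 12.9% of all genes called). In cluster 0, led by Mmp8 and Acvrl1, it was at 14.5 and 15.3 CPM with vehicle and 25.7 and 30.7 with PM, and it rose by 0.79 on the log2 scale (SE 0.14, adjusted p = 0.0060). In cluster 10, led by Il1b and Ptgs2, it was at 123 and 111 CPM with vehicle and 52.9 and 75.5 with PM (-0.71 ± 0.28, adjusted p = 0.143). The PM mice were higher in clusters 0, 1, 2 and 3 and lower in cluster 10, and overlapped with the vehicle mice in clusters 4 and 14. T cells held the highest level by vehicle mean, with a wide spread within each group, at 305 and 127 CPM with vehicle and 53.1 and 142 with PM (-1.13 ± 0.87, adjusted p = 0.699).

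**Figure D5:**
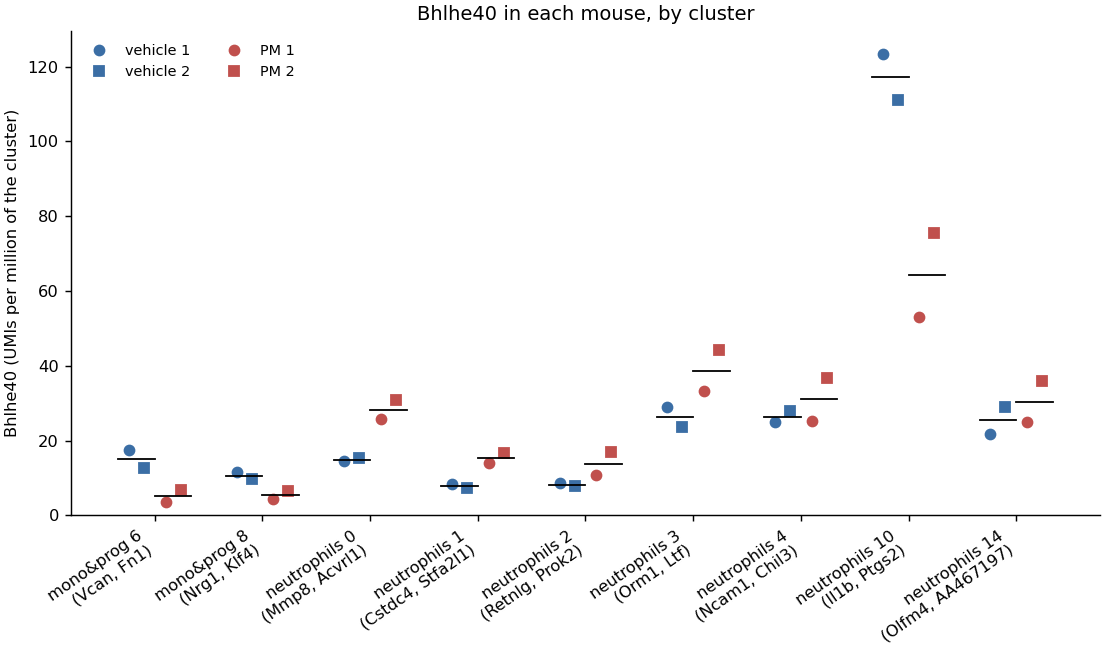
Bhlhe40 in UMIs per 1000000 of each cluster's sum (vertical axis) for each of the 4 mice in the clusters of mono&prog and neutrophils, with blue points for vehicle, red points for PM and bars for the group means. The PM mice lie below the vehicle mice in both mono&prog clusters and in neutrophil cluster 10 and above them in neutrophil clusters 0 to 3.

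Of the 21 other genes of the clock loops, 1 of 117 gene and type combinations outside mono&prog was called, and DESeq2 called 0. This was Usp2, a deubiquitinase that acts on clock proteins, which was higher in DC after PM at 25.1 and 11.6 CPM against 1.86 and 5.15 with vehicle (2.34 ± 0.54, edgeR adjusted p = 0.038). The share of all genes called in these types was 0.0524% to 6.36%, depending on the type. The median log2 fold change of the list was 0.01, against 0.00 over all genes. Clock, the partner of ARNTL, was at 47.7 and 49.4 CPM with vehicle and at 69.5 and 60.9 with PM in T cells (0.45 ± 0.19, adjusted p = 0.261) and at 44.4 and 39.6 against 35.1 and 35.3 in mono&prog. Cry2, the second cryptochrome, was at 13.1 and 15.2 CPM with vehicle and 17.8 and 23.0 with PM in B cells (adjusted p = 0.409). Nfil3, a repressor at D-boxes, was at 110 and 90.7 CPM with vehicle and at 45.1 and 64.0 with PM in mono&prog, while in neutrophils its groups overlapped (-0.17 ± 0.19, adjusted p = 0.613).

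Per1 is a known target of the glucocorticoid receptor, and 12 glucocorticoid-responsive genes were set beside it. Of 89 combinations, 2 were called lower and 1 higher (0.0524% to 6.36% of all genes called, by type), with a median log2 fold change of 0.08. By type, 8 of 11 fitted genes were below 0 in mono&prog (median -0.42, no test). In macrophages 6 of 7 were (-0.42) and in T cells 7 of 11 (-0.10). The counts were 2 of 12 in neutrophils (0.15), 4 of 11 in B cells (0.31) and 2 of 10 in erythroid&prog (0.36). DC had 4 of 8 (-0.07), plasma cells 4 of 8 (-0.10), HSPC 5 of 12 (0.02) and eosinophil/basophil prog 5 of 10 (-0.01). The share of all genes below 0 is not given, here or for the next list. DESeq2 made 1 call in place of the 3 calls above. In the 3 types with these calls, DESeq2 also called fewer of all genes. It called 36 against 81 in DC, 33 against 142 in T cells and 651 against 687 in neutrophils. Tsc22d3 fell in DC, from 310 and 232 CPM with vehicle to 149 and 174 with PM (-0.74 ± 0.17, edgeR adjusted p = 0.038). In neutrophils Tsc22d3 was at 192 and 192 CPM with vehicle and 214 and 199 with PM (0.02 ± 0.13, adjusted p = 0.950). Ddit4 fell in T cells, from 119 and 105 to 66.6 and 71.4 CPM (adjusted p = 0.038), and Zbtb16 rose in neutrophils at a low level, from 0.740 and 1.28 to 3.27 and 2.72 CPM (adjusted p = 0.026). Fkbp5, which the receptor induces in many cells, was at 39.7 and 42.4 CPM with vehicle and 46.2 and 48.8 with PM in neutrophils (adjusted p = 0.473).

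Klf9 was at 98.1 and 57.0 CPM with vehicle and at 18.5 and 28.6 with PM in mono&prog, and at 78.3 and 69.6 against 38.8 and 54.8 in T cells (-0.64 ± 0.20, edgeR adjusted p = 0.110). Dusp1, a phosphatase gene that is also an immediate early gene, was at 707 and 769 CPM with vehicle and at 381 and 770 with PM in neutrophils (-0.46 ± 0.29, adjusted p = 0.378). Dusp1 was lowest in PM 1 in 10 of 10 types. Without PM 1, Per1 was at -1.15 in neutrophils and -1.04 in HSPC, both called, and at -0.70 in DC, -0.52 in T cells and -0.39 in plasma cells, none called.

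Of 10 immediate early genes, which respond rapidly to stimulation, 3 of 82 combinations were called lower and 1 higher (0.0524% to 6.36% of all genes called, by type). The median log2 fold change was -0.24. In mono&prog 10 of 10 were below 0 (median -0.75, no test). The counts below 0 were 9 of 9 in T cells (-0.48), 8 of 8 in macrophages (-1.03) and 8 of 8 in plasma cells (-0.92). HSPC had 8 of 10 (-0.36) and B cells 8 of 10 (-0.50). DC had 5 of 9 (-0.15), eosinophil/basophil prog 4 of 8 (0.01), neutrophils 2 of 10 (0.29) and erythroid&prog 3 of 10 (0.54). The part of the immediate early genes in the Per1 result was not tested. The 4 calls became 14 with the replicate block. With that block, calls over all genes went from 665 to 679 in B cells, from 687 to 661 in neutrophils and from 42 to 242 in HSPC. In B cells Btg2 fell from 667 and 692 CPM to 329 and 317 (-1.07 ± 0.15), Jun fell from 229 and 264 to 104 and 151 (-0.97 ± 0.17) and Zfp36 fell from 495 and 419 to 264 and 345 (-0.58 ± 0.16). The shares of the B cell clusters differed between the groups, as given above, and their part in these 3 falls was not tested. In neutrophils Jun rose, from 115 and 120 CPM to 168 and 241 (0.70 ± 0.15, edgeR adjusted p = 0.031). Fos in neutrophils was at 119 and 202 CPM with vehicle and 230 and 311 with PM (adjusted p = 0.186), and Egr1 was at 19.8 and 46.5 against 55.0 and 111 (adjusted p = 0.386).

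The 3 genes whose level most resembled that of Per1 across the 40 sums of 10 types in 4 mice, among 7020 genes averaging 20 CPM or more, were Ubald2 (Pearson r = 0.76), Eif1 (r = 0.65) and Ppp1r15a (r = 0.61). These sums share mice and libraries, and the values describe them only.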

How the data were processed

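Bone marrow of 4 mice was profiled with 10x Genomics 3′ single-cell kits. The deposited values were raw UMI counts per gene and barcode, which the authors made with Cell Ranger (version 6.0.1 in the file header; the labels list STAR and GRCm39), with no further normalization. The labels give con and pm with replicate numbers, and con was read as vehicle. Nothing in the labels ties equal numbers together.

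Barcodes under 300 genes or over 20% mitochondrial UMIs were dropped, and all 4 libraries were clustered together with scanpy 1.11.5 (2500 variable genes, 30 components, 15 neighbours, Leiden resolution 1), giving 31 clusters. Clusters took the name of the marker list that led, and 9 stayed unnamed; these naming limits were chosen with the clusters in view. Called doublets (the top 0.8% per 1000 barcodes by Scrublet score) were kept in the main analysis. UMI counts were summed per mouse and type and tested with edgeR 4.0.16 (quasi-likelihood, TMM, filterByExpr, Benjamini-Hochberg over all genes of the type, R 4.3.3). Standard errors are the log2 fold change over the root of F. DESeq2 1.42.0 was an alternative. The test was also run on counts simulated independently for each gene. These hold no shift of a whole mouse or of cluster shares, so they do not check for such differences.

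The 10 genes and the lists were chosen with earlier results of these data known. Named are the 10 genes, with values per mouse where the mean is at least 10 CPM, Clock, Cry2, Nfil3, Tsc22d3, Fkbp5, Klf9, Dusp1, Fos, Jun and Egr1, every called list gene, and the 3 genes most like Per1. Fits on single clusters and interactions between clusters were added after seeing the data. Gene coordinates are from GENCODE M21 (GRCm38) and give positions only. UMIs per 1000000 UMIs of a sum are written as CPM. With 2 mice per group, p-values rest on few degrees of freedom.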

Additional observations from a re-analysis of the deposited data

Results flagged for a closer look

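The PM effect on Arntl differed between the cell types outside mono&prog (edgeR F test with mouse as a block, adjusted p = 0.0026, 7.96% of all genes called). It differed again between the 3 B cell clusters (adjusted p = 0.012, 7.19% of all genes called). Values were lower after PM in the clusters led by Igll1 and by Fam129c. In cluster 5, led by Ighd, they were 24.0 and 28.3 CPM with vehicle and 32.0 and 32.0 with PM. The shares of the clusters in the B cells also differed between the groups, and their part was not tested. The difference between types depended on PM 1, as given above.

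Between the neutrophil clusters the PM effect differed for Per1 (edgeR F test, adjusted p = 0.032), Per2 (adjusted p = 0.026) and Bhlhe40 (adjusted p = 5.4e-05). Of all genes, 12.9% were called in this way.

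Bhlhe40 was higher in both PM mice than in both vehicle mice in neutrophils (log2 fold change 0.30, edgeR adjusted p = 0.192, not called). It was lower in both in mono&prog (-1.31), the type whose values chose the set. The difference between the 2 types was not tested. Bhlhe40 was lower in PM 1 than in PM 2 in 9 of 9 fitted types, mono&prog included.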

How the results depend on the processing

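The falls of Per1 in neutrophils and of Arntl in B cells were called with either normalization, without the filter on low counts, with DESeq2, with the replicate block, without doublets, under the stricter cell filter and without any 1 mouse; the fall of Per1 in HSPC was also called under these. Against 4 calls among clock genes outside mono&prog, there were 2 with only the largest cluster of each type, and 3 to 6 with 1 mouse left out. Of the 2, Per1 in neutrophils was among the 4 and Bhlhe40 in neutrophils was not, while Per1 in HSPC and Nr1d2 in B cells were not called and Arntl in B cells (cluster 5) was at 0.22, a reversed sign. The lone mouse of a group is then assumed to vary like the others. The largest cluster holds only a part of the cells of its type. Why calls changed between settings was not tested.

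For the other loop genes (1 call), 7 were called without the filter, 3 with the replicate block, 2 under the stricter cell filter, 0 with DESeq2, 0 without doublets and 1 to 2 with a mouse left out. For the glucocorticoid-responsive genes (3 calls), 14 were called without the filter, 5 with the replicate block, 1 with DESeq2 and 2 to 11 with a mouse left out. For the immediate early genes (4 calls), 19 were called without the filter, 14 with the replicate block, 9 with the largest clusters and 7 to 21 with a mouse left out. The number of clock genes whose PM effect differed between types (1) was 3 without the filter and 0 to 2 with a mouse left out.

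Equal replicate numbers do not pair the mice in the labels, and the deviations of same-numbered mice correlated at -0.19 to 0.10 across types. The replicate block made 3 calls among clock genes, losing Nr1d2 in B cells. Crossing the numbers of the block, an alternative chosen after seeing the data, gave 5 calls among clock genes, 2 among other loop genes, 7 among glucocorticoid-responsive and 16 among immediate early genes. Calls over all genes moved between settings too, by amounts that differed between types. Whether the lists moved more than all genes was not tested. In B cells, calls over all genes went from 665 to 679 with the block and 868 without the filter on low counts. In HSPC they went from 42 to 242 with the block and 420 without the filter on low counts. In erythroid&prog they went from 28 to 0 and 725.

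Signs also turned for single values. Nr1d2 in B cells was at -0.48 in cluster 9 and Bhlhe40 in neutrophils at -0.71 in cluster 10. With 1 mouse left out, Per1 in erythroid&prog ranged from -0.50 to 0.0037, Nr1d2 in T cells from -0.12 to 0.085 and Arntl in T cells from -0.16 to 0.61. Over all 38 fitted combinations of a clock gene and a type other than mono&prog with a mean of at least 10 CPM, 17 turned sign under some setting.

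With 2 mice per group and 1 library per mouse, differences between mice and between groups are estimated from few values, and combinations with under 10 CPM rest on few UMIs. A test that missed the threshold at this depth does not show that a gene did not change.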
